A study of Fragaria hybrid cultivar with 9 samples.

Results

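Small RNAs of 23 to 25 bases that had no miRBase name, and that the authors' pipeline listed as predicted, were described in strawberry petals at 3 stages of the flower bud. Members were taken from the names that begin with PC-, with a sequence of 23 to 25 bases and a mean of at least 2 normalized reads over all 9 libraries, and each sequence was counted once. This gave 345 members of the 1660 distinct sequences in the table. Before the limit on the mean, 687 predicted names had these lengths. The members were thus chosen by their measured level, and their means are given as a description. The names say little about the kind of RNA. The lengths and first bases below show what most members have in common, and strand partners are given for the part that had them.

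Petals came from the pink-flowered cultivar Sijihong, grown in open ground, a hybrid of Fragaria x Potentilla that the labels call interspecific and the paper intergeneric. The stages were the young bud (PF_L), the bud at which petals begin to color (PF_Z) and the big bud (PF_D), with 3 biological replicates each. Nothing in the labels differed between the groups apart from the stage. Whole petals were extracted, so fewer cells with a small RNA and less of it in each cell cannot be told apart. The value of 1 read was 0.713 to 0.882 normalized reads in PF_L, 1.05 to 1.09 in PF_Z and then 1.07 to 1.27 in PF_D, and the 345 members together held 4108 to 4561 reads per library in PF_L, 1945 to 3554 in PF_Z and then 1223 to 2119 in PF_D. A floor of 3 reads was worth 2.14 to 3.82 normalized reads, so a member near a level of 2 rested on very few reads in a library.

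Plants sort their small RNAs by the Dicer-like enzyme that cuts them. Dicer-like 1 releases microRNAs from folded hairpin transcripts, and these mostly begin with U and are bound by ARGONAUTE1, which cuts or silences messenger RNAs. Dicer-like 3 cuts double-stranded RNA, copied by RNA polymerase IV and RNA-dependent RNA polymerase 2, into small interfering RNAs of 24 nucleotides. These are bound mainly by ARGONAUTE4, which favours a first base A, and they guide DNA methylation at transposons and other repeats. Some hairpins are also cut to this longer length, so length alone does not tell the classes apart, and neither precursors nor genome positions were analysed here.

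The 6 sequences that follow are examples from the results by stage. They are the 3 most abundant members, 2 members with large falls and the member called higher in PF_D than in PF_L. Bases are written 5′ to 3′ with T for U as in the deposited table, and capitals mark bases 2 to 8, the stretch called the seed in a microRNA.
PC-3p-1052_2435: cGGTATAGtctttcctgagctctt
PC-5p-32027_130: tTCGTGGCtgctcctacatgtaat
PC-5p-4208_692: gGTTGGGTggtttttgggaaagg
PC-3p-123386_43: aAATTGTGttgtaggtcatgagag
PC-5p-160738_34: aACCCAAAttgtaatccacacacc
PC-5p-510664_12: tTTCATCCaatttggtgaccgtt
The first 3 of these begin with C, T and G, and they were also the only members with a mean of at least 100 normalized reads.

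Most members were 24 bases long and began with A. Of the 345, 328 had 24 bases, 15 had 23 and 2 had 25. A was the first base of 303 members (87.8%), T (U in the RNA) of 26 (7.54%), C of 9 and G of 7. Among those of 24 bases the count was 297 of 328 (90.5%), whereas of the 15 members of 23 bases 8 began with T and 5 with A. The rule used neither the first base nor any other part of the sequence.

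The first base set the members apart in number from the other lists of the table, a description with no test because related sequences are not independent. Predicted sequences of 20 to 22 bases with a mean of at least 2 began with A in 17 of 155 cases and with T in 87 (56.1%). Sequences of 23 to 25 bases with a miRBase name began with A in 13 of 55 cases (23.6%) and with T in 19 (34.5%). Predicted sequences of 23 to 25 bases under the limit began with A in 247 of 342 cases (72.2%). The GC content of the members averaged 40.9% ± 10.1 (SD over members) with a range of 20.8% to 75%, against 46.1% for the predicted sequences of 20 to 22 bases and 45.6% for the named ones of 23 to 25 bases.

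Many members were near copies of each other on one strand or the other. With an edit distance of at most 4 bases on either strand as the limit, a setting chosen after the data were seen, 170 members fell into 51 groups and 175 into none. Of these groups 32 were pairs, and 30 held both a name with 5p and a name with 3p, the labels for the arms of a predicted hairpin. The 20 members of the largest group all began with A, and each lay within 4 edits of at least 1 other. The following 4 show how the variants line up, with the last as the exact complement of the second over its full length.
PC-5p-262491_22: aGAGATTCatgatcagtcaccatt
PC-5p-65160_73: aGAGATTCatggtcagtcaccatt
PC-5p-1045690_7: aAGAGATTtatggtcagtcatcat
PC-3p-127484_42: aATGGTGActgaccatgaatctct
The second group held 13 members, again all with a first base A. Its most abundant members show substitutions spread over the sequence. Both 3p sequences below are close to the complement of sequences like the first and second, and the genome strand of each was not analysed.
PC-5p-120336_44: aCATCAAGccgtgagtcgtctgat
PC-5p-261467_22: aCATCAAActgtgaaccgttcgat
PC-3p-56259_83: aTCGGACGgttcacgacttgatgt
PC-3p-127241_42: aTCAGACGgctcacggcttgatgt

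Exact overlaps also linked complementary sequences. An overlap of at least 18 bases with the opposite strand of another listed sequence was found for 55 members (15.9%), in 42 pairs. It was found for 14 of 155 predicted sequences of 20 to 22 bases (9.03%) and 7 of 55 named sequences of 23 to 25 bases (12.7%). The minimum of 18 bases takes up more of a shorter sequence. In 41 of the 42 pairs one name was 5p and the other 3p. Both sequences were members in 21 pairs. Dicer enzymes leave a duplex with 2 unpaired bases at each 3′ end, and 3 pairs had that form, 6 were complementary over their full length, and 6 had 2 unpaired bases at the 5′ ends instead. One pair of full complements is shown, because each strand was listed with reads of its own.
PC-3p-387764_16: aGTGTGAAttacaatttaaggagt
PC-5p-726532_9: aCTCCTTAaattgtaattcacact

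Overlaps on the same strand linked 34 members in 32 pairs, none of them with a miRBase-named sequence. For predicted sequences of 20 to 22 bases the count was 23 of 155. Members of 23 bases that began with T supplied a staggered set, in which the second sequence starts 4 bases after the first and the third starts 3 bases after the second.
PC-3p-139693_39: tTGATGCTatgtgttatttgggt
PC-3p-91143_56: tGCTATGTgttatttgggtatgt
PC-3p-149411_37: tATGTGTTatttgggtatgtgtg
A pair of 24 bases among the 8 most abundant members overlapped by 22 bases with a shift of 2, so the rows of such a pair are not independent.
PC-3p-89719_57: aAATGATCggacggctcacggctt
PC-3p-77875_64: aTGATCGGacggctcacggcttga
Bases 2 to 8 were shared with another member by 91 of the 345, in 38 different stretches of at most 4 members each. A miRBase-named sequence shared those bases with 19 of the 345, and with 11 of 155 among the predicted sequences of 20 to 22 bases.

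Levels were low and unevenly spread. The mean over 9 libraries ran from 2.01 to 346 normalized reads with a median of 4.27, and 202 members lay under 5. A mean of 10 to under 100 was found for 47 members, and the 3 most abundant members carried 23.7% of the summed level. At the limit itself, PC-3p-711038_9 (2.01), PC-3p-697793_10 (2.01) and PC-3p-746656_9 (2.02) lay just inside. Just outside lay PC-3p-4123934_3, PC-3p-2838824_3 and PC-5p-3696322_3, with means of 1.997, 1.995 and 1.992. The limit thus cut through a continuous run of low values.

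Fewer members were seen in the libraries of the big bud. A value above 0 was recorded for 340 to 343 members per library in PF_L, for 320 to 340 in PF_Z and then for 265 to 302 in PF_D. All 3 libraries of a stage held a value above 0 for 335 members in PF_L, 302 in PF_Z and then 219 in PF_D. A value above 0 in all 9 libraries was found for 189 members, and none was above 0 in fewer than 6. PF_D also had the fewest reads, so these counts moved with depth, whose part in them was not tested. At 0 in every PF_D library were PC-5p-388264_16, PC-5p-694835_10, PC-5p-943218_8, PC-3p-2785002_3 and PC-3p-697793_10.

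The summed level of the members was lower in the big bud on the deposited scale, and by how much depended on the scale. It was 4023, 2931 and 3446 normalized reads in PF_L, 2115, 2534 and 3730 in PF_Z and then 1558, 2392 and 2068 in PF_D. Each PF_L library lay above each PF_D library, while PF_Z overlapped both. The stage means were 3467 ± 547 in PF_L, 2793 ± 838 in PF_Z and then 2006 ± 420 in PF_D (SD, n = 3), a change of -42.1% from PF_L to PF_D. Of all listed normalized reads the members took 0.368% ± 0.0560 in PF_L, 0.311% ± 0.150 in PF_Z and then 0.160% ± 0.0326 in PF_D.

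Divided by the valid reads, those left after filtering in the whole library, the change was much smaller. Per 1000000 valid reads (RPM), the members took 283 ± 12.9 RPM in PF_L, 276 ± 42.0 in PF_Z and then 249.6 ± 50.4 in PF_D, a change of -11.8%, and the range of 196 to 297 in PF_D overlapped the 270.3 to 296 of PF_L. The 3 most abundant members behaved differently from each other, as shown further on. Without them, an alternative chosen after the data were seen, the sum was 2764 ± 444, 2238 ± 672 and 1303 ± 158 normalized reads (-52.8% from PF_L to PF_D), or 226 ± 4.89, 221 ± 34.0 and 162 ± 18.3 RPM (-28.1%). On that last scale all PF_D libraries (143 to 179.6) lay below all PF_L libraries (219.9 to 228).

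**Figure D1:**
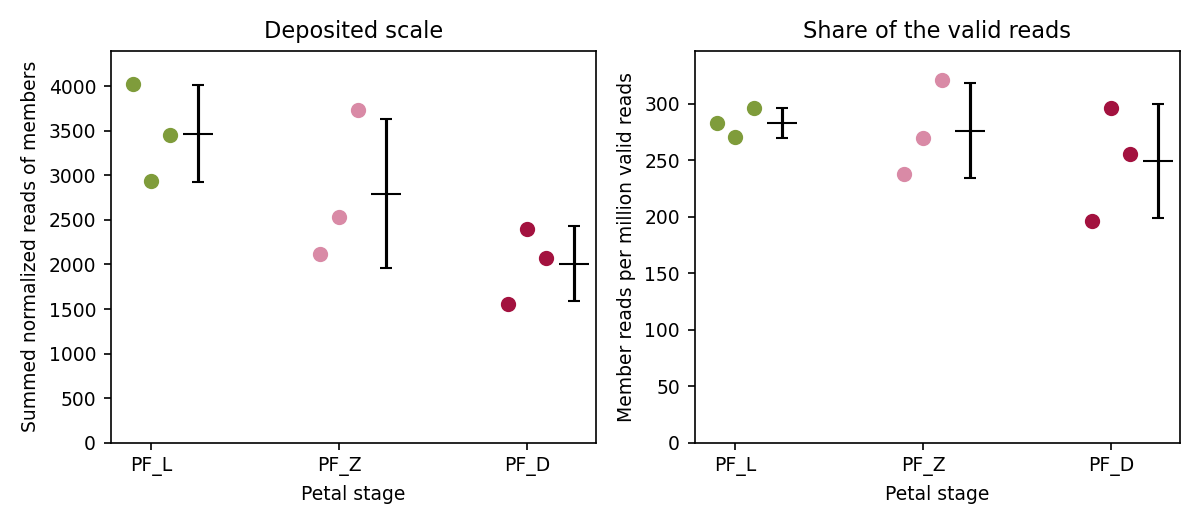
Summed level of the 345 members in each library at PF_L, PF_Z and PF_D, as normalized reads on the left and as RPM of the valid reads on the right. Points are libraries and the bars beside them give the mean ± SD (n = 3), with 1558 to 2392 normalized reads in PF_D under the 2931 to 4023 of PF_L, and overlapping ranges in RPM.

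The lists compared did not all follow the same course. Predicted sequences of 23 to 25 bases under the limit were lower in PF_D, as the members were. They summed to 484 ± 79.0 normalized reads in PF_L and 225 ± 16.1 in PF_D. That is a ratio of 0.466, against 0.579 for the members. On the deposited scale the predicted sequences of 20 to 22 bases summed to 17465 ± 304 normalized reads in PF_L and 21921 ± 817 in PF_D, a ratio of 1.26. The named sequences of 23 to 25 bases summed to 9664 in PF_L and 8015 in PF_D. The predicted sequences of 20 to 22 bases and the named ones each held more normalized reads than the members at both stages.

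Most single members had their highest mean in the young bud. The highest of the stage means was in PF_L for 227 members, in PF_Z for 94 and in PF_D for 24, and the lowest was in PF_D for 284. Means were lower at each step in 198 members, higher and then lower in 94, lower and then higher in 43 and higher at each step in 10. A mean of at least 2 was held by 335 members in PF_L, 315 in PF_Z and then 224 in PF_D.

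From the young bud to the big bud, 57 members passed the test of limma on log2(value + 1) at a Benjamini-Hochberg adjusted p under 0.05 over 1554 tested lines. Of these, 56 (16.2% of the members) were lower in PF_D and 1 was higher. Over all tested lines 16.3% were called, with 8.17% lower and 8.11% higher, so the members' share of calls was near the background and their direction was not. The direction is given as a description, because the limit on the mean used these same libraries and the other lines had no such limit. A mean of at least 2 was held by 335 members in PF_L and 224 in PF_D. The part of the limit in the direction was not tested. The log2 fold change lay below 0 for 317 of 345 members (91.9%) and for 625 of the other 1209 lines (51.7%). Its median was -1.01 for the members, -0.28 for all tested lines and -0.04 for the lines that were not members, of which 71 were called lower and 125 higher.

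The libraries themselves showed the same direction. In 144 members every PF_D library lay below every PF_L library, against a background of 20.5% of the tested lines, and in 2 members every PF_D library lay above (background 15.8%). Of the 57 called members, 56 had no overlap between the libraries. The called falls ran from -1.14 to -3.64 on the log2 scale with a median of -1.95. These counts hold for the deposited scale, and dividing by the valid reads moved the median of all lines from -0.28 to 0.05 and that of the members from -1.01 to -0.57, with 26 members called lower and 2 higher. Of the 57 members, 26, all lower, were called under each of the 4 scalings tried, and 0 changed sign in any alternative. The number called was 13 without PF_L1, 24 without PF_L3 and 35 without PF_D1.

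**Figure D2:**
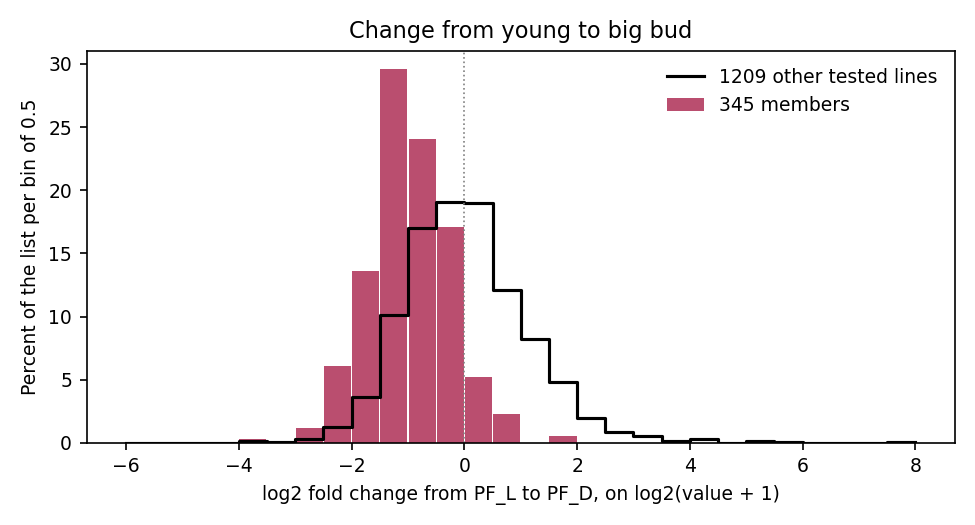
Log2 fold change to PF_D from PF_L, on log2(value + 1) of the deposited values, in bins of 0.5. Filled bars are the 345 members and the black line the 1209 other tested lines, each as a percent of its list, with medians of -1.01 and -0.04.

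Members were called lower in every range of levels, with a share that was smaller at lower levels, against 8.17% of all tested lines. Of the 50 with a mean of at least 10, 19 were called lower (38%), of the 93 between 5 and 10, 15 (16.1%), and of the 202 under 5, 22 (10.9%). The medians of the log2 fold change were -1.22, -1.04 and -0.95 in this order. In the lists compared, 2 of 155 predicted sequences of 20 to 22 bases were called lower and 13 higher, 12 of 55 named sequences of 23 to 25 bases were called lower and 3 higher, and 17 of 295 tested predicted sequences of 23 to 25 bases under the limit were called lower and 0 higher (limma, as above).

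Members with a first base A, 303 of the 345, accounted for most of the fall in the sum. The shares called lower were close, with 16.5% for A, 15.4% for T and 12.5% for C or G. Of the 303 members with A, 288 had a log2 fold change below 0 and 50 were called lower, and their sum went from 2491 normalized reads in PF_L down to 1115 by PF_D. Members with T numbered 26, of which 17 were below 0, 4 were called lower and 1 higher, with sums of 344 and 302. Of these sums PC-5p-32027_130 alone held 165.5 in PF_L and 175.5 in PF_D. The 16 with C or G held sums of 631 and 589, with 2 called lower. These last sums were largely those of the most abundant members named above. Whether first bases differed in their change was not tested.

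The 3 most abundant members each had a course of its own. PC-3p-1052_2435, with a first base C, stood at 298, 228 and 435 normalized reads in PF_L, 115, 186 and 401 in PF_Z and then 194, 722 and 535 in PF_D. The stages overlapped, with 320 ± 106, 234 ± 149 and 484 ± 268 (SD, n = 3) and a log2 fold change of 0.45 (limma adjusted p = 0.528). Scaled to the valid reads that change was 1.04 (adjusted p = 0.115). PC-5p-32027_130, with a first base T, stood at 191, 153 and 152 in PF_L, 175, 167 and 203 in PF_Z and then 173, 178 and 175 in PF_D. On the deposited scale its stage means of 166 ± 22.4, 181 ± 18.8 and 176 ± 2.56 differed by less than the spread within PF_L (log2 fold change 0.09, limma adjusted p = 0.835). The change was -0.32 with equal listed totals (adjusted p = 0.453) and 0.69 on valid reads (adjusted p = 0.0778), so its sign depended on the scale.

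PC-5p-4208_692, of 23 bases with a first base G, fell to the big bud from either earlier stage. It stood at 282, 165 and 203 normalized reads in PF_L, 141, 136 and 141 in PF_Z and then 56.1, 42.9 and 32.0 in PF_D. No stage overlapped another. Its means were 217 ± 59.6, 139 ± 2.81 and 43.6 ± 12.1, with a log2 fold change to PF_D from PF_L of -2.29 (SE 0.29, limma adjusted p = 3.15e-05) and from PF_Z to PF_D of -1.69 (adjusted p = 0.00154). It was called for both changes in all 19 alternatives, scaling to the valid reads included (-1.70 from PF_L to PF_D, adjusted p = 6.69e-04), and it was the most abundant member called.

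Among the next 5 by level, 4 were called lower in PF_D. The overlapping pair PC-3p-89719_57 and PC-3p-77875_64 was lower in both its members. The first stood at 78.5, 76.3 and 61.4 normalized reads in PF_L, 40.8, 59.9 and 52.0 in PF_Z and then 33.1, 38.9 and 25.6 in PF_D, and the second at 50.7, 32.5 and 44.5, at 23.9, 35.9 and 42.0 and at 13.4, 16.4 and 17.1. All PF_L values of each lay above all its PF_D values. The log2 fold change was -1.14 (SE 0.30, limma adjusted p = 0.0167) for PC-3p-89719_57 and -1.38 (SE 0.34, adjusted p = 0.011) for PC-3p-77875_64. The call of PC-3p-89719_57 ended without PF_L1 (0.0752), PF_L2 (0.0538) or PF_D3 (0.0695), and that of PC-3p-77875_64 without PF_L1 (0.0668) or PF_L3 (0.0527). Scaled to the valid reads, neither was called (adjusted p = 0.279 and 0.116).

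PC-3p-51470_89, which shares no group with another member, had close means at the first 2 stages. These were 50.2 ± 4.13 normalized reads in PF_L, 49.7 ± 17.4 in PF_Z, followed by 21.2 ± 5.82 in PF_D, and PF_L (45.4 to 52.8) and PF_D (15.5 to 27.1) did not overlap. Its log2 fold change to PF_D from PF_L was -1.24 (SE 0.34, limma adjusted p = 0.0186), which was no longer called on valid reads (0.222) or without PF_L1 (0.0512), PF_L2 (0.0512), PF_L3 (0.0766) or PF_D3 (0.0786).

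The leading members of the second sequence group, PC-5p-120336_44 and PC-5p-261467_22, completed the 8 most abundant. PC-5p-120336_44 stood at 70.1, 31.0 and 49.5 in PF_L, 21.7, 50.6 and 32.5 in PF_Z and then 17.2, 31.0 and 19.2 in PF_D, where the lowest PF_L and the highest PF_D value were about equal (log2 fold change -1.10, limma adjusted p = 0.0659). PC-5p-261467_22 stood at 60.0, 29.6 and 37.9 in PF_L, 27.7, 24.5 and 52.0 in PF_Z and then 8.28, 22.6 and 15.5 in PF_D. Its PF_L and PF_D values were apart, with a log2 fold change of -1.45 (SE 0.42, adjusted p = 0.0256) that was not called on valid reads (0.153) or without PF_L1 (0.133), PF_L3 (0.0659), PF_D1 (0.0967) or PF_D3 (0.0598).

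**Figure D3:**
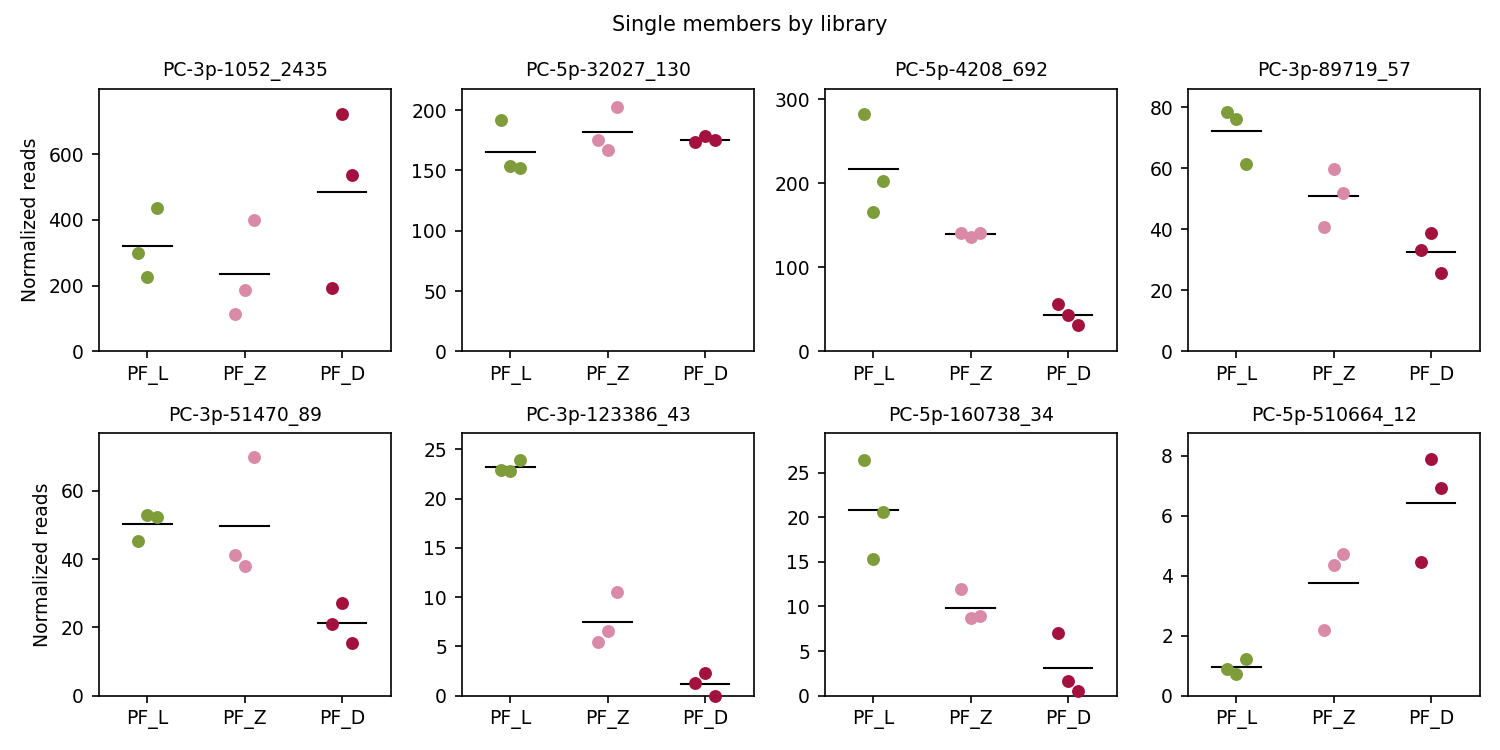
Normalized reads of 8 members in each library at PF_L, PF_Z and PF_D, each panel with its own linear axis from 0. Points are libraries and lines are stage means (n = 3), with PC-5p-4208_692 falling from a mean of 217 to 43.6, PC-3p-123386_43 from 23.2 to 1.18, and PC-5p-510664_12 rising from 0.944 to 6.43.

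The largest falls led to levels near or below 3 reads per library. PC-3p-123386_43 stood at 22.9, 22.8 and 23.9 normalized reads in PF_L, 5.43, 6.53 and 10.5 in PF_Z and then 1.27, 2.26 and 0 in PF_D. Its 3 PF_L libraries were close to each other, and no stage overlapped another. Summed over libraries these were 87 reads in PF_L and 3 in PF_D. Scaled by the value of 1 read at each stage, the ratio was 20.2 with a 95% counting interval of 6.70 to 100 (exact, counting error only). The log2 fold change on log2(value + 1) was -3.64 (SE 0.50, limma adjusted p = 6.77e-05). From PF_Z to PF_D the same member fell by 2.08 (adjusted p = 0.027), a call that ended without PF_Z2 (0.053), PF_Z3 (0.0922) or PF_D3 (0.12) and with the compared stages fitted alone (0.132).

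PC-5p-160738_34 went the same way from a similar level, with 26.5, 15.3 and 20.6 normalized reads in PF_L, 12.0, 8.71 and 8.92 in PF_Z and then 7.01, 1.69 and 0.533 in PF_D. The stages did not overlap (log2 fold change -2.73, SE 0.54, limma adjusted p = 0.00219). PC-3p-129388_41 stood at 15.0, 6.42 and 11.5 in PF_L and at 0, 2.82 and 0 in PF_D (adjusted p = 0.00506). PC-3p-474933_13 stood at 11.5, 5.71 and 5.77 in PF_L and at 1.27, 0 and 0 in PF_D (adjusted p = 0.00621). For both, the fitted size depends on the pseudocount and is not given as a fold.

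Of the last members in this order, PC-3p-440041_14 stood at 8.82, 12.8 and 11.1 in PF_L and at 0.637, 1.69 and 1.07 in PF_D (limma adjusted p = 0.00426). PC-3p-181478_31 stood at 7.06, 4.99 and 5.77 in PF_L and at 0, 1.13 and 0 in PF_D (adjusted p = 0.00738). These 6 largest falls were called in all 19 alternatives, each library left out in turn and each scaling among them. All 6 had 24 bases, and 5 began with A and PC-3p-129388_41 with T.

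One member rose. PC-5p-510664_12, of 23 bases with a first base T, stood at 0.882, 0.713 and 1.24 normalized reads in PF_L, 2.17, 4.36 and 4.72 in PF_Z and then 4.46, 7.90 and 6.93 in PF_D. PF_L lay below both later stages, but its values rested on 3.5 reads in PF_L against 17 in PF_D. Its log2 fold change was 1.91 (SE 0.53, limma adjusted p = 0.0199). The call ended when listed totals were made equal (0.0569) and without PF_L1 (0.0677), PF_L2 (0.0587), PF_L3 (0.0506), PF_D2 (0.0667) or PF_D3 (0.0604). On valid reads it was called (2.27, adjusted p = 0.00509), as was PC-5p-459320_14 (1.24, adjusted p = 0.0458), named after its values were seen, which on the deposited scale was not (0.72, adjusted p = 0.247).

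Members of the less common lengths were called in both directions. Of the 15 of 23 bases, 3 were called lower and 1 higher, and of the 328 of 24 bases 53 were called lower. PC-5p-35523_120, among the most abundant of 23 bases, stood at 17.6, 17.1 and 29.7 normalized reads in PF_L and 28.0, 30.5 and 34.1 in PF_D (log2 fold change 0.54, limma adjusted p = 0.402). The 2 members of 25 bases, PC-5p-2541322_4 and PC-5p-2266090_4, were each at 0 in at least 1 library and were not called. In the staggered set of 23 bases, PC-3p-139693_39 stood at 18.1, 13.9 and 18.1 in PF_L and 2.55, 4.51 and 2.66 in PF_D (-2.08, SE 0.45, adjusted p = 0.00431), and it was called in all 19 alternatives. Its neighbours PC-3p-91143_56 (-1.31, adjusted p = 0.093) and PC-3p-149411_37 (-0.54, adjusted p = 0.486) did not pass, and the difference between them was not tested.

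Among the groups of related sequences the summed levels of the 5 largest were lower in PF_D on the deposited scale, and those of all but 1, led by PC-3p-430335_14, also per valid read. The group led by PC-5p-262491_22 held 157 ± 17.7 normalized reads in PF_L, 157 ± 36.0 in PF_Z and then 87.8 ± 13.9 in PF_D (SD, n = 3). All 20 members had a log2 fold change below 0, yet only PC-5p-1381313_6 and PC-5p-694835_10 were called. The call of PC-5p-694835_10 (limma adjusted p = 0.0169) ended without PF_L1 (0.0977), and that of PC-5p-1381313_6 (0.046) on valid reads (0.205) and without any PF_L library, PF_Z2, PF_D2 or PF_D3 (0.0501 to 0.174). The group led by PC-5p-120336_44 held 319 ± 96.3, 218 ± 44.4 and 135 ± 25.7, with 12 of 13 members below 0 and 4 called lower.

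The rest of the 5 largest groups were also lower in PF_D than in PF_L on the deposited scale. Not every smaller group was. That led by PC-5p-860358_8 held 3.52 ± 3.13 normalized reads in PF_L and 8.41 ± 4.72 in PF_D. That led by PC-5p-83206_60 held 15.6 ± 6.34 and 16.8 ± 8.64. The group of 7 led by PC-3p-175527_32 held 47.2 ± 9.37 normalized reads in PF_L, 39.3 ± 6.40 in PF_Z and then 22.4 ± 2.11 in PF_D, with 1 member called lower. The group of 6 led by PC-3p-430335_14 held 55.5 ± 8.86, 66.4 ± 27.4 and 38.4 ± 1.65, with none called. The group of 5 led by PC-3p-590082_11 held 45.4 ± 5.69, 37.1 ± 13.2 and 16.8 ± 0.253, with 3 called lower. As log2 ratios of PF_D over PF_L the 5 sums were -0.84, -1.24, -1.08, -0.53 and -1.43, and per valid read -0.24, -0.62, -0.46, 0.07 and -0.83, so the group led by PC-3p-430335_14 changed direction with the scale.

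**Figure D4:**
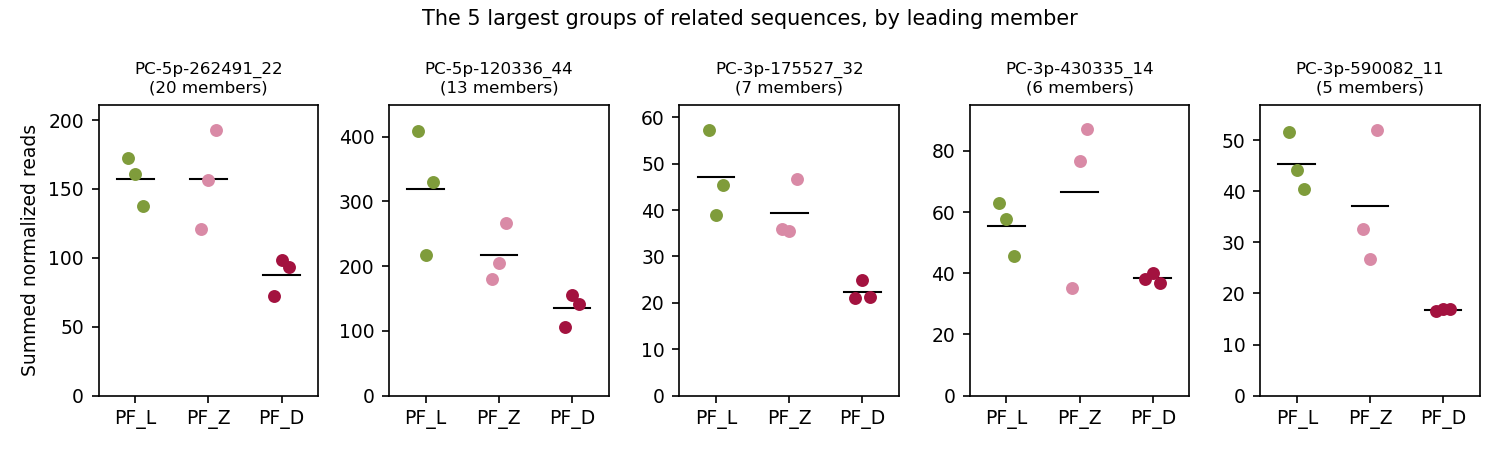
Summed normalized reads of the 5 largest groups of related sequences in each library at PF_L, PF_Z and PF_D, each panel named by its most abundant member and drawn on its own linear axis from 0. Points are libraries and lines are stage means (n = 3), with means of 157 and 87.8 in PF_L and PF_D for the group of 20 members and 45.4 and 16.8 for the group of 5. Per valid read the group led by PC-3p-430335_14 was not lower in PF_D (log2 ratio 0.07).

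The levels of strand partners are described here and were not tested against each other. In the exact pair shown above, PC-5p-65160_73 stood at 16.3, 17.8 and 13.6 normalized reads in PF_L and 3.82, 14.1 and 9.06 in PF_D, and its complement PC-3p-127484_42 at 11.5, 15.0 and 5.36 and at 6.37, 7.90 and 12.8. Neither change was called (limma adjusted p = 0.191 and 0.856). PC-3p-56259_83, from the opposite strand of the second group, stood at 49.4, 29.2 and 47.0 in PF_L and 16.6, 14.1 and 9.06 in PF_D (-1.59, SE 0.38, adjusted p = 0.00915), a call that ended without PF_L1 (0.0564) and on valid reads (0.0677).

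From the young bud to the beginning of color, no member passed the test, while 1.16% of all tested lines did, 0.579% in each direction (limma). An unadjusted p under 0.05 was reached by 21 members, and the smallest adjusted p was 0.166. The log2 fold change was below 0 for 254 members with a median of -0.33, against -0.09 over all lines. Without PF_Z3, the library with the highest summed level of its stage, 1 member was called.

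From the beginning of color to the big bud, 8 members were called, all lower, against 1.03% of tested lines called lower, 2.64% called higher and 3.67% called in all. The log2 fold change was below 0 for 284 members, with a median of -0.71 against -0.15 over all lines. Beside PC-5p-4208_692 and PC-3p-123386_43, described above, these were PC-5p-90898_56, PC-3p-590082_11, PC-5p-2365053_4, PC-5p-1083450_7, PC-5p-943218_8 and PC-5p-1381313_6. The number called was 1 without PF_Z2 or PF_Z3, 3 without PF_L1 or PF_L3, 4 without PF_L2 or PF_D3 and 5 without PF_D2, and PC-5p-4208_692 was called in all of these.

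Of the remaining 6, PC-5p-90898_56 stood at 10.9, 17.4 and 28.3 normalized reads in PF_Z and then 3.82, 7.90 and 4.26 in PF_D (limma adjusted p = 0.0478), without overlap. Its call held without PF_Z1 or PF_D2 but ended without each of the other 7 libraries (0.05 to 0.175) and on valid reads (0.0707). PC-3p-590082_11 stood at 13.0, 9.80 and 16.8 in PF_Z and then 2.55, 2.26 and 6.39 in PF_D (adjusted p = 0.0496), and its call held without PF_D3 but ended without each of the other 8 libraries (0.0599 to 0.149) and on valid reads (0.0766). From PF_L to PF_D, PC-5p-90898_56 was called in all 19 alternatives and PC-3p-590082_11 in 18, the exception being the fit without PF_L1 (0.0512).

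The other 4 were scarce in PF_D, with libraries at 0 for all but PC-5p-1381313_6. PC-5p-2365053_4 stood at 0.882, 2.85 and 4.95 normalized reads in PF_L, 2.17, 9.80 and 8.92 in PF_Z and then 0, 0 and 0.533 in PF_D (limma adjusted p from PF_Z to PF_D 0.0316), and its call ended without PF_Z2 (0.1), PF_Z3 (0.0922), PF_D1 (0.0688), PF_D2 (0.084) or PF_D3 (0.0672). PC-5p-943218_8 stood at 2.72, 5.45 and 2.10 in PF_Z and then at 0 in all of PF_D (adjusted p = 0.0496), and its call ended without any 1 of the 9 libraries (0.0548 to 0.153). PC-5p-1381313_6 stood at 13.0, 11.4 and 14.7 in PF_Z and then 7.01, 2.82 and 1.07 in PF_D (adjusted p = 0.0496), and its call held without PF_D1 but ended without each of the other 8 libraries (0.0567 to 0.19) and on valid reads (0.0791). PC-5p-1083450_7 stood at 5.43, 5.45 and 4.20 in PF_Z and then 0, 0 and 1.07 in PF_D (adjusted p = 0.0444). Its call held without PF_L2 or PF_D3 and ended without each of the other 7 libraries (0.0583 to 0.113).

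Over the 3 stages together, the F test of limma called 32 members, against a background of 11.3% of tested lines. The means of 28 were lower at each step, and those of 4 were highest in PF_Z. From PF_L to PF_Z the log2 fold changes of these 4 were -0.04 to 0.99, and none was called (adjusted p 0.524 to 0.985). Those 4 were PC-5p-2365053_4, PC-5p-943218_8, PC-5p-1381313_6 and PC-5p-126640_42, the last with 22.4 ± 2.13 normalized reads in PF_L, 22.6 ± 8.19 in PF_Z and then 7.87 ± 3.60 in PF_D. Its fall from PF_L to PF_D was -1.50 on the log2 scale (adjusted p = 0.0203), called on the deposited scale but not on valid reads (0.137) and not without PF_L1 (0.0776), PF_L3 (0.078) or PF_D1 (0.0811). The F test called 7 members without PF_L1, 9 without PF_L3, 10 without PF_D3, 17 without PF_D1 and 18 without PF_D2.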

How the data were processed

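Small RNAs of 9 petal libraries, 3 per stage, had been sequenced on an Illumina HiSeq instrument. With the ACGT101-miR pipeline the authors discarded adapter, junk, repeat and structural RNA reads, matched the rest to miRBase and to the genome of Fragaria vesca, and deposited 1 normalized signal per listed sequence and library, whose formula is not given in the sources used here. The paper names CTAB for extraction and the labels Trizol.

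Of the deposited lines, 173 that repeat another in full were left out. The most common value above 0 in a library was taken as that of 1 read. Within 0.01 read, 70.8% to 78.4% of the members' values above 0 were whole multiples of it and 100% were multiples of 0.5 read. Without molecular identifiers, an interval or floor covers counting error alone.

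For comparisons between stages, log2(value + 1) of all 9 libraries was fitted in limma 3.58.1 (R 4.3.3) with the trend option. The 1554 lines above 0 in at least 3 libraries were tested, all 345 members among them, with Benjamini-Hochberg adjustment over all lines, two-sided. Alternatives were other pseudocounts, filters, limits on the members and scalings, each library left out and a replicate block. The valid reads used as denominators came from a supplement of the paper. Sequences were compared with edlib in Python 3.11.15 with pandas 2.3.3. The limma comparison from PF_L to PF_D was tried on simulated data.

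Members, lists and tests were chosen with earlier results of these data known. Members named in the text were the 8 most abundant, the 2 most abundant of each length, the 6 called with the largest rise and fall from PF_L to PF_D without overlap, up to 4 with the largest change among those called in each other comparison, the 4 called by the F test with PF_Z farthest from both other stages, 3 on either side of the limit, and sequence examples. Others were named after their values were seen.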

Additional observations from a re-analysis of the deposited data

How the results depend on the processing

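None of the 57 members called from PF_L to PF_D changed sign in an alternative. On valid reads the median of all lines went from -0.28 to 0.05, and the summed levels of 6 of the 51 sequence groups, among them that led by PC-3p-430335_14, from below to above 0. The log2 ratio of the members' summed level in PF_D over PF_L was -0.79 as deposited, -1.20 with equal listed totals and -0.18 on valid reads. From PF_L to PF_D, 57 members were called as deposited, 28 on valid reads, 34 among members with a mean of at least 5, and 13 to 64 with 1 library left out. From PF_Z to PF_D, where 8 were called, the count was 5 with a pseudocount of 0.5, with median-of-ratios scaling, with 1 line per distinct sequence or among members with a mean of at least 5. It was 3 with no filter, 17 with only lines of a mean of at least 2 tested, 13 with equal listed totals, 1 with these stages fitted alone, and 1 to 8 with 1 library left out. From PF_L to PF_Z it was 0 to 1 with 1 library left out. The F test called 32 members, 51 with equal listed totals, 18 on valid reads, 19 with a mean of at least 5 and 7 to 43 with 1 library left out. The cause of these shifts was not tested. The replicate numbers were treated as names of the samples. Deviations of same-numbered libraries correlated at -0.02 to 0.12, and 3 of 9 comparisons were highest for the own number. These values cannot show that the replicates were unpaired, because counting error in lines of low level also lowers a correlation. With the replicate block, 60 members were called from PF_L to PF_D, 6 from PF_Z to PF_D, 0 from PF_L to PF_Z and 29 by the F test. The 2 planned count tests on reads recovered from the values were not run, because 70.8% to 78.4% of the members' values above 0 in a library came out as whole reads.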

Other observations

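The predicted names end in a number whose meaning is not given in the sources used here. The reads that the table gave a member over the 9 libraries were a median of 4.40 times that number, from 0.587 to 16.2 times, and at least 2 times it for 299 of the 345 members. For the 155 predicted sequences of 20 to 22 bases the median was 2.22, and 81 reached 2 times.

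PC-5p-226653_25, named after its values were seen, was the 1 member called higher from PF_Z to PF_D on valid reads (log2 fold change 1.80, limma adjusted p = 0.0469). It stood at 7.50, 3.92 and 4.54 normalized reads in PF_L, 0.544, 1.09 and 1.57 in PF_Z and 5.10, 4.51 and 5.33 in PF_D, so its PF_Z libraries lay below those of both other stages, while on the deposited scale the change was not called (1.56, adjusted p = 0.105).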
